A study of Mus musculus with 9 samples.

Results

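The complement genes described here are 32 genes of the complement cascade, chosen by name and not by their values. They comprise the initiators of the classical and lectin pathways, C3 and the alternative pathway, the terminal components, the receptors and the regulators. Of the 32, 31 had a row among the 18349 genes listed, and 29 passed the filter on low counts and were tested among 15010 genes. Cfd was not analysed here, and Masp2 and Hc stayed below the filter.

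Complement is a set of plasma and cell-surface proteins that tag and attack microbes, dying cells and debris. The classical pathway starts when C1q binds a target and its proteases C1r and C1s cut C4 and C2. The lectin pathway reaches the same step through the MASP proteases, and the alternative pathway amplifies C3 cleavage through factors B, D and P. Cleaved C3 marks surfaces for phagocytes, the small fragments C3a and C5a signal through their own receptors on leukocytes, and the terminal components build a pore in membranes. Host cells carry and secrete regulators that stop the cascade, and the eye is known to keep complement under such local control.

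Gene expression was measured by bulk RNA-seq of mouse iris in 3 groups of 3 libraries, each library made from 3 irises combined. The comparisons addressed how injury of the cornea changed the iris, and how deletion of VEGFR3 (gene Flt4), the receptor for VEGFC, in lymphatic endothelial cells changed the injured iris. The Sham VEGFR3fl/fl and injured VEGFR3fl/fl groups carried floxed Flt4 alleles without Cre, and their genotype is given as WT in the sample labels. The injured VEGFR3iLECko group carried the same alleles with Prox1-CreERT2, a tamoxifen-activated Cre driven by Prox1, which is active in lymphatic endothelium and in other Prox1-expressing cells. At an age of 6 weeks, injured eyes had sodium hydroxide (1 M, 0.5 μL) held on the cornea for 60 seconds, and Sham eyes had PBS. Mice of all groups, Sham included, were given tamoxifen at 80 mg/kg on days 13 to 17 after the cornea was treated, and irises were taken at 10 weeks. The genotype field of the VEGFR3iLECko libraries names Vegfr3 in replicate 1 and a differently numbered receptor in replicates 2 and 3. The background strain was C57BL/6J, and both sexes were used.

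The libraries held 16617187 to 18306359 estimated counts. Values are given as CPM, counts per 1000000 after TMM scaling, and a differentially expressed gene (DEG) was one with an adjusted p under 0.05 (edgeR's quasi-likelihood test, Benjamini-Hochberg over 15010 genes) and a change of more than 1.5-fold. The p-values measure the spread between these 9 libraries only. Flt4, the targeted gene, had 282, 237 and 265 counts in the Sham libraries, 277, 353 and 400 in the injured VEGFR3fl/fl libraries and 478, 370 and 476 where the label was VEGFR3iLECko. It was therefore not lower in the libraries labelled VEGFR3iLECko (log2 fold change 0.33, adjusted p = 0.200 by edgeR), and whole-gene counts cannot show whether the floxed part was removed. Replicate 1 of the injured VEGFR3fl/fl group stood apart, with 1199 and 918 genes more than 2-fold away from replicates 2 and 3, which differed from each other in 534. Summed CPM of 4 Y-linked genes was 51.1 to 167 in the Sham libraries, 151, 136 and 0.804 in injured VEGFR3fl/fl replicates 1 to 3, and 0.736 to 1.11 in the VEGFR3iLECko libraries. Markers of the iris were present in every library: pigment cell and iris epithelium markers summed to 28394 to 30363 CPM in Sham, 3565 to 6034 in injured VEGFR3fl/fl and 5335 to 7451 in VEGFR3iLECko libraries.

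After injury, most of the complement genes rose. Of the 29 genes tested, 18 were higher in the injured VEGFR3fl/fl than in the Sham VEGFR3fl/fl irises, 4 were lower and 7 were not DEGs, where 22.1% of all tested genes were higher and 17.5% lower. Their median log2 fold change was 1.93, against 0.010 over all 15010 genes, and it was the same with Vsig4, which had no count in Sham, set at its lower bound. The groups did not overlap in CPM for 20 genes that were higher and 6 that were lower after injury, beside 33.9% and 32.4% of all genes. By role, 7 of 10 initiators rose and 1 fell (median log2 fold change 2.74), and 3 of 3 genes of C3 and the alternative pathway (3.80) and 5 of 6 receptors rose. Of the terminal components 0 of 3 rose and 2 fell (median -0.93), and of 7 regulators 3 rose and 1 fell (0.43). In the libraries labelled VEGFR3iLECko, C1qa, C1qb, C1qc and C3ar1 were lower than in the injured VEGFR3fl/fl irises and 0 of the 29 were higher, beside 0.466% of all genes lower and 0.573% higher. DESeq2 gave the same counts for the 29 genes, where it called 282 of all genes lower and 344 higher. At an unadjusted p under 0.05 by edgeR the count stayed at 4 lower and 0 higher, where 12.5% of all genes were lower and 12% higher, so that 4 of 29 was a share near that of all genes.

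**Figure D1:**
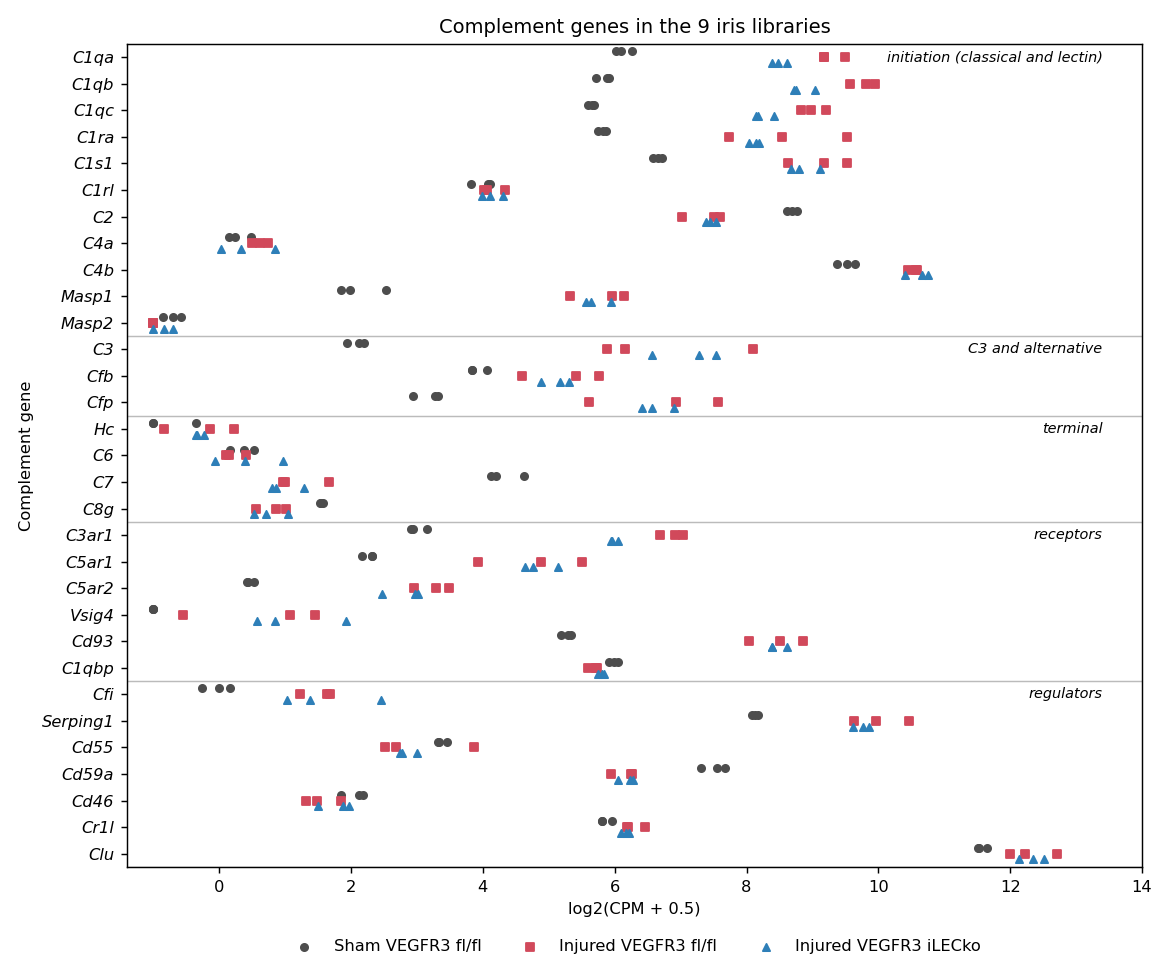
Level of the 31 complement genes with a row in each of the 9 libraries, as log2(CPM + 0.5), ordered by role from initiation to regulators; each symbol is a library, circles Sham VEGFR3fl/fl, squares injured VEGFR3fl/fl and triangles injured VEGFR3iLECko. Most initiators and receptors lie to the right of their Sham symbols in both injured groups, C2, C7 and Cd59a lie to the left, and in C1qa, C1qb, C1qc and C3ar1 all triangles lie between the circles and the squares.

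The 250 bases before an annotated RefSeq transcript start are shown for 5 genes: C1qb, C1qc and C3ar1, which were DEGs in both comparisons, C3, with the largest fitted rise among genes with counts in Sham, and C7, with the largest fall. Sequences are from RefSeq (GRCm38.p6), 5′ to 3′ in the direction of the gene, and 21 of the 31 genes had 24 entries, a pair each for C8g, C1s1 and C5ar2; C1qa was among the 10 without one. Capitals mark matches on either strand to 5 motifs: the NF-kB letters GGG, any 5 bases, CC; the C/EBP letters TTGCNNAA; the PU.1 letters GAGGAAG; the GAS letters TTCNNNGAA; and the ISRE letters GAAA, any 2 bases, GAAA. The start used for C1qc lies 22 bases inside the outer end of its RefSeq gene. For C1qb and C7 the first 30 bases after the start are in no GENCODE M21 transcript of the gene, and the start used in these irises was not measured. Matches to one motif may overlap each other and then appear as 1 run of capitals.
C1qb, chr4:136886201-136886450, minus strand, 2 overlapping NF-kB matches: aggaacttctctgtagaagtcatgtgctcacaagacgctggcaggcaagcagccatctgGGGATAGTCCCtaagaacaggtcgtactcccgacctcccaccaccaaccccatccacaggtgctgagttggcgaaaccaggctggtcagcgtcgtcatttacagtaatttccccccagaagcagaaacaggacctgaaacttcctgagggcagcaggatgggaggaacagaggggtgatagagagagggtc
C1qc, chr4:136892915-136893164, minus strand, a PU.1 match and 2 overlapping NF-kB matches: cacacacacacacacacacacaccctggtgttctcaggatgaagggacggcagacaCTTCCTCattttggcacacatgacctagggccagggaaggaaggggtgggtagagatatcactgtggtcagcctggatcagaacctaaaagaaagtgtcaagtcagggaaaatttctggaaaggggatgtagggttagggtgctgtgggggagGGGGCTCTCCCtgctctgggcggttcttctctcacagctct
C3ar1, chr6:122856158-122856407, minus strand, an NF-kB match: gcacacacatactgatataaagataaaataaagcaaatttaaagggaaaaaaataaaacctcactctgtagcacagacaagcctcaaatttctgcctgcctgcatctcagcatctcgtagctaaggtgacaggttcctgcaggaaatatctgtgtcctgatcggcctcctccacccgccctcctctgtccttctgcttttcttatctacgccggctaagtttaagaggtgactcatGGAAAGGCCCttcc
C3, chr17:57228137-57228386, minus strand, 4 NF-kB matches and a C/EBP match: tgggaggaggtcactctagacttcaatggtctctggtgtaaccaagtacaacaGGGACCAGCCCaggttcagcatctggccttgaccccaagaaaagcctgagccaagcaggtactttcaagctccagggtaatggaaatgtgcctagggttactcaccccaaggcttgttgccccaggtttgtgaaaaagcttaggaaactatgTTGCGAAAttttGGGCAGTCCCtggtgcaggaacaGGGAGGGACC
C7, chr15:5063774-5064023, minus strand, a GAS match: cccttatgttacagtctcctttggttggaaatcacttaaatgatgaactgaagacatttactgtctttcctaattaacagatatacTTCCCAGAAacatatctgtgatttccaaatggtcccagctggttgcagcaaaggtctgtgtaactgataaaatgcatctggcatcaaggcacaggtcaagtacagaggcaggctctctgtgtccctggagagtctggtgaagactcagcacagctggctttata
Among the 24 entries, 12 (50%) held the NF-kB letters, beside 45.8% of all 32851 promoters of the same length, and 4 (16.7%) the C/EBP letters, beside 9.56%. The PU.1 letters were in 2 (8.33%, beside 10.6%), the GAS letters in 2 (8.33%, beside 7.02%) and the ISRE letters in 1 (4.17%, beside 2.98%). A match describes the letters only.

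C1q, the recognition molecule of the classical pathway, is built from 3 chains whose genes lie side by side on chromosome 4, and all 3 rose after injury. C1qb measured 52.1, 58.7 and 59.5 CPM in the Sham libraries, 984, 902 and 762 in the injured VEGFR3fl/fl libraries and 524, 430.2 and 421 in the injured VEGFR3iLECko libraries. C1qa measured 64.1, 76.3 and 67.8 CPM in the Sham libraries, 580.2, 719 and 575 in the injured VEGFR3fl/fl libraries and 391, 334 and 356 in the injured VEGFR3iLECko libraries. C1qc measured 47.6, 51.1 and 49.8 CPM in the Sham libraries, 502, 589.9 and 455 in the injured VEGFR3fl/fl libraries and 342, 288 and 283 in the injured VEGFR3iLECko libraries. For each chain every injured library was above every Sham library, and the VEGFR3iLECko libraries lay between the other groups without overlap. The rise was 15.5-fold for C1qb (log2 3.96 ± 0.14 (SE), adjusted p = 7.90e-08), 9.0-fold for C1qa (log2 3.17 ± 0.12 (SE), adjusted p = 1.46e-07) and 10.4-fold for C1qc (log2 3.38 ± 0.12 (SE), adjusted p = 9.29e-08), each by edgeR's quasi-likelihood test. Per transcript length (approximate TPM), the level of C1qb over that of C1qa was 0.777, 0.735 and 0.838 in Sham libraries, 1.62, 1.20 and 1.27 in injured VEGFR3fl/fl and 1.28, 1.23 and 1.13 in VEGFR3iLECko libraries. The order of these chains was thus opposite in Sham and in injured irises. With 3 libraries a group, the exact two-sided permutation test gave p = 0.1, the smallest it allows, for the difference after injury (adjusted 0.15 over 3 chain ratios).

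The proteases that act with C1q rose with it, less evenly. C1ra, the mouse C1r gene, measured 58.1, 56.1 and 53.2 CPM in the Sham libraries, 735, 212 and 369 in the injured VEGFR3fl/fl libraries and 292, 261 and 281 in the injured VEGFR3iLECko libraries. Injured VEGFR3fl/fl replicate 1 held by far the most, but the lowest injured library was still above all Sham libraries. Its log2 fold change after injury was 2.97 ± 0.38 (SE), adjusted p = 1.35e-04 by edgeR, and 2.38 without that library. C1s1, which encodes C1s, measured 95.3, 105 and 100.1 CPM in the Sham libraries and 737, 396 and 579 in the injured VEGFR3fl/fl libraries, again without overlap (log2 2.51 ± 0.21 (SE), adjusted p = 1.14e-05). C1rl, a C1r-like protease gene just beside them on chromosome 6, did not follow: 16.7, 16.4 and 13.6 CPM in the Sham libraries and 16.1, 15.6 and 19.6 in the injured VEGFR3fl/fl libraries, groups that overlapped (log2 fold change 0.14, adjusted p = 0.404). C1ra and C1s1 have close copies, C1rb and C1s2, whose reads may be shared with them.

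The substrates of these proteases went opposite ways. C4b, the main mouse C4 gene, measured 732, 799.7 and 665 CPM in the Sham libraries, 1539.95, 1393 and 1527 in the injured VEGFR3fl/fl libraries and 1732, 1617 and 1349 in the injured VEGFR3iLECko libraries. Every injured library was above every Sham library, a 2.03-fold rise (log2 1.02 ± 0.12 (SE), adjusted p = 7.46e-05 by edgeR). C2, whose product combines with C4b to form the C3-cleaving enzyme, measured 411, 437 and 393 CPM in the Sham libraries, 129.9, 192 and 181 in the injured VEGFR3fl/fl libraries and 185, 166 and 173 in the injured VEGFR3iLECko libraries. Every injured library was below every Sham library, a 2.46-fold fall (log2 -1.30 ± 0.14 (SE), adjusted p = 4.14e-05). C4a, at 0.518 to 1.30 CPM over all libraries and nearly identical to C4b, was not a DEG (log2 fold change 0.51, adjusted p = 0.275 by edgeR), and reads may be split between the copies. Masp1, the lectin pathway protease gene, measured 5.26, 3.45 and 3.10 CPM in the Sham libraries and 39.7, 69.7 and 61.8 in the injured VEGFR3fl/fl libraries, a 14.5-fold rise without overlap (log2 3.86 ± 0.27 (SE), adjusted p = 3.24e-06). Masp2, which cuts C4 and C2 in the lectin pathway, had at most 3 counts in any library, and no fold is given.

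C3, the component on which the pathways converge, was low in Sham irises. It measured 4.10, 3.84 and 3.32 CPM in the Sham libraries, 273, 58.5 and 70.5 in the injured VEGFR3fl/fl libraries and 154, 94.2 and 186 in the injured VEGFR3iLECko libraries. The lowest injured library was far above the highest Sham library, and replicate 1 of the injured VEGFR3fl/fl group held several times more than replicates 2 and 3. The coefficient of variation was 89.95% in that group, against 10.5% in Sham. The fitted rise was 35.6-fold (log2 5.15 ± 0.66 (SE), adjusted p = 1.44e-04 by edgeR), and the log2 fold change was 4.10 without replicate 1.

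Cfb, which encodes factor B of the alternative C3 convertase, measured 13.8, 16.2 and 13.7 CPM in the Sham libraries, 53.6, 23.7 and 41.98 in the injured VEGFR3fl/fl libraries and 35.4, 29.1 and 39.2 in the injured VEGFR3iLECko libraries. The injured libraries did not overlap with Sham, and Cfb was 2.73-fold higher after injury (log2 1.45 ± 0.26 (SE), adjusted p = 0.00112 by edgeR). Cfb and C2 are neighbours on chromosome 17 (GRCm38.p6, Cfb chr17:34856374-34862514 and C2 chr17:34862602-34882100), and their products do the same task in the alternative and classical pathways, yet the levels of Cfb rose where those of C2 fell. Cfp, the X-linked gene of properdin, which stabilises that convertase, measured 7.15, 9.21 and 9.52 CPM in the Sham libraries, 48.3, 189 and 122 in the injured VEGFR3fl/fl libraries and 94.2, 85.1 and 118 in the injured VEGFR3iLECko libraries. It rose 13.9-fold (log2 3.80 ± 0.45 (SE), adjusted p = 8.40e-05), and here replicate 1 of the injured VEGFR3fl/fl group was the lowest injured library rather than the highest.

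None of the 3 terminal components tested rose after injury. C7, which anchors the growing attack complex in the membrane, measured 17.9, 24.2 and 16.95 CPM in the Sham libraries, 2.67, 1.46 and 1.49 in the injured VEGFR3fl/fl libraries and 1.93, 1.25 and 1.32 in the injured VEGFR3iLECko libraries. All injured libraries lay far below all Sham libraries, a 10.5-fold fall (log2 -3.39 ± 0.28 (SE), adjusted p = 1.05e-05 by edgeR). C8g, encoding the C8 gamma chain, measured 2.38, 2.43 and 2.48 CPM in the Sham libraries and 0.971, 1.52 and 1.32 in the injured VEGFR3fl/fl libraries, also without overlap (log2 fold change -0.93, adjusted p = 0.0162), and its adjusted p was 0.0501 without injured VEGFR3fl/fl replicate 1. C6, the neighbour of C7 on chromosome 15 and its partner in the complex, stayed between 0.453 and 1.46 CPM in all libraries (log2 fold change -0.23, adjusted p = 0.675). Hc, which encodes C5, had 0, 5 and 0 counts in Sham, 11, 7 and 1 in injured VEGFR3fl/fl and 6, 5 and 5 in VEGFR3iLECko libraries and was below the filter. The pore-forming genes C8a, C8b and C9, from the other complement genes listed, were not tested because of their low counts. The fall of C7 and C8g ran beside a fall in the summed pigment cell and iris epithelium markers given above and in iris muscle markers (7346 to 9573 CPM in Sham, 1492 to 3187 in injured VEGFR3fl/fl). Which cells express C7 was not measured, and in bulk tissue fewer cells of a type and less RNA per cell cannot be told apart.

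Receptors for complement fragments rose. C3ar1, the receptor for C3a, measured 7.03, 8.42 and 7.21 CPM in the Sham libraries, 131, 119.9 and 103 in the injured VEGFR3fl/fl libraries and 61.9, 65.7 and 60.96 in the injured VEGFR3iLECko libraries. The 3 groups were fully separated, and C3ar1 was 15.6-fold higher after injury (log2 3.96 ± 0.12 (SE), adjusted p = 3.17e-08 by edgeR). C5ar1, the main C5a receptor, measured 4.49, 4.46 and 3.998 CPM in the Sham libraries and 14.7, 44.96 and 28.9 in the injured VEGFR3fl/fl libraries, and C5ar2, the second C5a receptor and its neighbour on chromosome 7, measured 0.942, 0.847 and 0.845 CPM in the Sham libraries and 7.22, 9.25 and 10.7 in the injured VEGFR3fl/fl libraries. Neither overlapped with Sham (log2 fold change 2.77, adjusted p = 1.69e-04 for C5ar1 and log2 fold change 3.36, adjusted p = 4.46e-06 for C5ar2). Their ligand gene Hc stayed near 0 in the same libraries.

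Vsig4, the receptor through which tissue macrophages take up C3-coated particles, had 0 counts in all Sham libraries, 3, 38 and 28 in the injured VEGFR3fl/fl libraries and 17, 23 and 57 in the VEGFR3iLECko libraries. It was at least 7.96-fold higher after injury, taking 3 counts per library as the floor in Sham, and was a DEG by edgeR (adjusted p = 0.00647). Cd93, a surface protein of endothelium and myeloid cells, measured 39.9, 35.7 and 38.7 CPM in the Sham libraries and 262, 461 and 363 in the injured VEGFR3fl/fl libraries (log2 fold change 3.25, adjusted p = 1.33e-06 by edgeR), with no overlap. C1qbp, encoding a mostly mitochondrial protein that binds the C1q heads, was the exception among receptors: it measured 62.8, 66.1 and 59.7 CPM in the Sham libraries and 47.9, 52.6 and 51.97 in the injured VEGFR3fl/fl libraries, without overlap and lower after injury (log2 fold change -0.31, adjusted p = 0.00334), by less than 1.5-fold. The median log2 fold change of the 6 receptors was 3.30, or 3.12 with Vsig4 at its bound.

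Of the regulators, the 3 secreted ones were DEGs above Sham, and of the 4 membrane-bound ones Cd59a was a DEG below it and Cr1l was higher by less than 1.5-fold. Serping1, the C1 inhibitor that removes C1r and C1s from C1q, measured 272, 279 and 287 CPM in the Sham libraries, 1405, 789.6 and 997 in the injured VEGFR3fl/fl libraries and 868, 784 and 927 in the injured VEGFR3iLECko libraries. It rose 3.81-fold without overlap (log2 1.93 ± 0.19 (SE), adjusted p = 2.58e-05 by edgeR). Clu, clusterin, a secreted chaperone that also blocks the terminal complex, measured 2922, 2936 and 3193 CPM in the Sham libraries and 6702, 4778 and 4066 in the injured VEGFR3fl/fl libraries (log2 fold change 0.78, adjusted p = 0.00504). Its change was 0.55 on the log2 scale, under 1.5-fold, without injured VEGFR3fl/fl replicate 1. Cfi, factor I, which inactivates C3b and C4b, rose from 0.498, 0.621 and 0.338 to 2.61, 2.69 and 1.84 CPM (log2 fold change 2.27, adjusted p = 0.00327).

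Cd59a, which blocks C9 insertion, measured 159, 203 and 187 CPM in the Sham libraries, 75.3, 61.3 and 76.3 in the injured VEGFR3fl/fl libraries and 77.5, 65.5 and 74.8 in the injured VEGFR3iLECko libraries. Every injured library was below every Sham library, a 2.58-fold fall (log2 -1.37 ± 0.12 (SE), adjusted p = 1.47e-05 by edgeR). Cd55, decay-accelerating factor, measured 9.53, 10.4 and 9.57 CPM in the Sham libraries and 14.02, 5.21 and 5.91 in the injured VEGFR3fl/fl libraries. Replicate 1 lay above the Sham libraries and the others below them, and Cd55 was not a DEG (log2 fold change -0.23, adjusted p = 0.562), and without replicate 1 it was lower (log2 fold change -0.82, adjusted p = 0.00172). Cd46, a cofactor for factor I, measured 4.04, 3.11 and 3.83 CPM in the Sham libraries and 2.31, 1.99 and 3.10 in the injured VEGFR3fl/fl libraries (log2 fold change -0.57, adjusted p = 0.0729). Cr1l (Crry), the broad C3 regulator of mouse cells, measured 55.5, 61.97 and 55.6 CPM in the Sham libraries and 87.8, 72.4 and 73.1 in the injured VEGFR3fl/fl libraries, higher by less than 1.5-fold (log2 fold change 0.43, adjusted p = 0.00272).

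Per transcript length, Clu was the most abundant complement gene in both Sham and injured irises, at an approximate TPM of 4811 ± 320 in Sham and 6627 ± 1201 in injured VEGFR3fl/fl libraries (SD, n = 3). In Sham it was followed by Serping1 (456 ± 18.2), C2 (451 ± 17.3) and C4b (392 ± 28.9), of which Serping1 and C2 differed by less than their spread. In injured VEGFR3fl/fl irises C1qb (1893 ± 154), C1qa (1413 ± 252), Serping1 (1392 ± 304) and C1qc (1006 ± 166) came next, and C1qa and Serping1 differed by less than their spread. C3 reached 58.4 ± 47.9. This order depends on the transcript length taken. With the median in place of the longest transcript Clu stayed first, but in Sham it was followed by C4b (1156), C2 (718) and Serping1 (202), and in injured irises by C4b (2019), C1s1 (906) and C1qb (838).

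**Figure D2:**
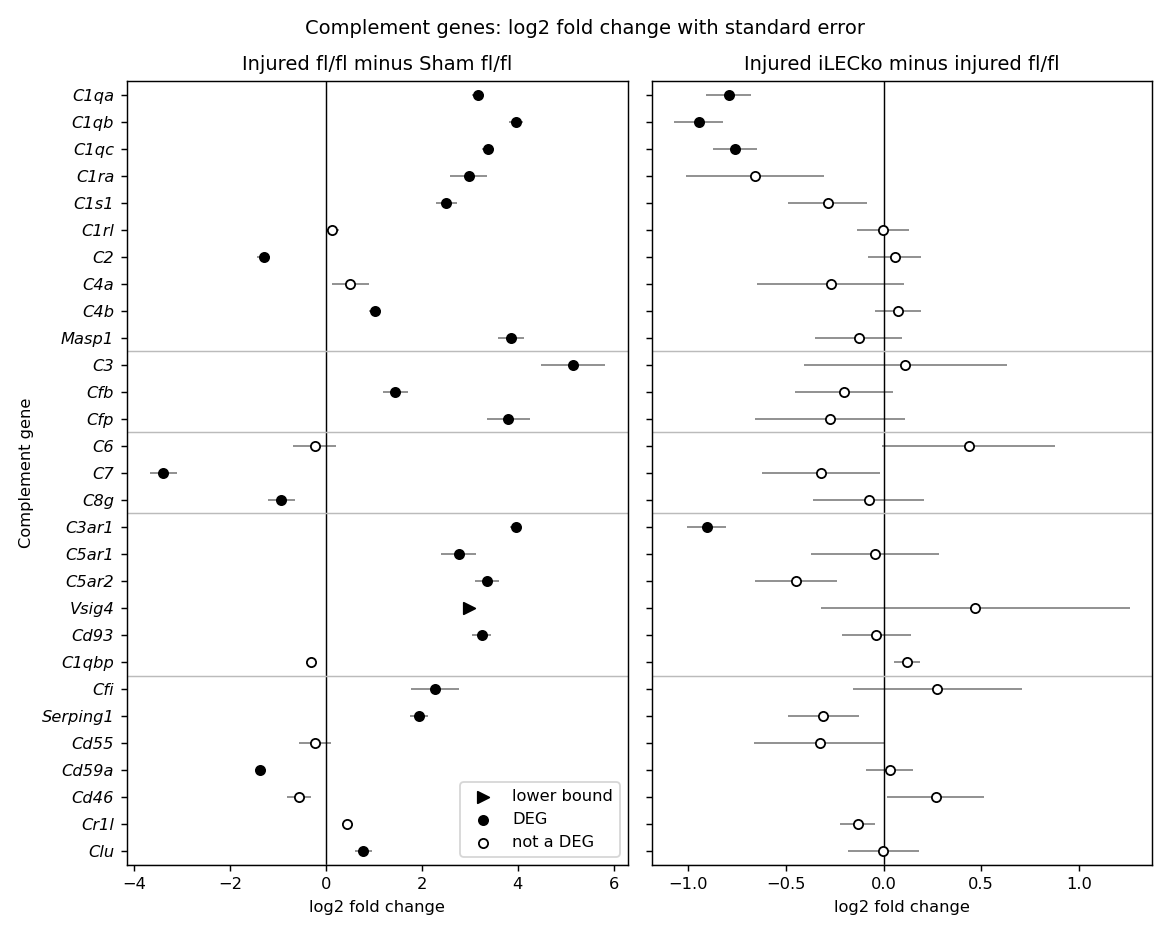
Log2 fold change with its standard error (bars) of the 29 tested complement genes, in injured VEGFR3fl/fl versus Sham irises (left) and in injured VEGFR3iLECko versus injured VEGFR3fl/fl irises (right, a narrower scale); filled circles are DEGs, open circles are not, lines separate the roles, and the triangle of Vsig4 is its lower bound. On the left 18 genes are DEGs above 0 and 4 below, Vsig4 included; on the right 4 genes are DEGs, all below 0.

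Of 32 other complement genes listed by name, 30 had a row and 14 were tested. After injury 9 of the 14 rose and 3 fell, beside 22.1% and 17.5% of all genes, so that 3 of 14 was a share near that of all genes. The median log2 fold change of the 14 was 0.91. The chains of the iC3b receptors on leukocytes rose: Itgb2 measured 8.20, 8.30 and 8.11 CPM in the Sham libraries and 422, 304 and 377 in the injured VEGFR3fl/fl libraries (log2 fold change 5.48, adjusted p = 3.10e-08), with Itgax (log2 fold change 6.66, adjusted p = 8.08e-07) and Itgam (log2 fold change 3.71, adjusted p = 1.97e-06). Fcna, a ficolin that starts the lectin pathway, Ptx3, a pentraxin that binds C1q, Colec12, a collectin, and Csmd1, a membrane regulator, rose as well (log2 fold changes 4.29, 2.03, 0.65 and 1.09). Vtn, vitronectin, which keeps the terminal complex soluble, and Susd4, a membrane regulator, fell (-1.70 and -1.03). None of the 14 was a DEG between the injured groups, where 1 was higher and 1 lower at an unadjusted p under 0.05, a threshold that 12% and 12.5% of all genes passed.

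Between the injured groups, 4 of the 29 genes were lower in the libraries labelled VEGFR3iLECko. C1qb was 1.93-fold lower (log2 -0.95 ± 0.12 (SE), adjusted p = 0.0235), C3ar1 1.87-fold (log2 -0.90 ± 0.10 (SE), adjusted p = 0.0214), C1qa 1.73-fold (log2 -0.79 ± 0.11 (SE), adjusted p = 0.0263) and C1qc 1.69-fold (log2 -0.76 ± 0.11 (SE), adjusted p = 0.0263), each by edgeR. The injured groups did not overlap in the downward direction for the same 4 genes, beside 14.3% of all genes, so that 4 of 29 was a share near that of all genes. C1qbp was the 1 gene that did not overlap in the upward direction, beside 12.4%. All 4 stayed well above Sham in the VEGFR3iLECko libraries, by 8.08-fold for C1qb and 8.31-fold for C3ar1. The VEGFR3iLECko and Sham libraries also differed in Y-linked level, as given above.

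The remaining 25 genes were not DEGs, and 16 of the 25 had a log2 fold change below 0. C1ra (log2 -0.66 ± 0.35 (SE), adjusted p = 0.273), C5ar2 (log2 -0.45 ± 0.21 (SE), adjusted p = 0.222) and Serping1 (log2 -0.31 ± 0.18 (SE), adjusted p = 0.315) had the largest of these negative values among genes above 5 CPM on average in the injured VEGFR3fl/fl group other than Cd55. C3 had a log2 fold change of 0.11 ± 0.52 (SE), adjusted p = 0.916 by edgeR, a wide error, and without injured VEGFR3fl/fl replicate 1 it was 1.17 (adjusted p = 0.0630). C4b, C2 and Clu had values close to 0 (0.07, 0.06 and -0.0014), with SEs of 0.12, 0.13 and 0.18. Among the other initiators C1s1 (-0.28), C4a (-0.27), Masp1 (-0.13) and C1rl (-0.0012) had values below 0, as had Cfb (-0.20) and Cfp (-0.27) of the alternative pathway. C7 (-0.32) and C8g (-0.08) stayed at their low injured levels, and C6 had 0.44. Of the receptors C5ar1 (-0.04) and Cd93 (-0.04) were near 0, and Vsig4 (0.47) and C1qbp (0.12) above it. The regulators Cd55 and Cr1l had values below 0 (-0.33 and -0.13) and Cfi, Cd46 and Cd59a above it (0.27, 0.27 and 0.03), and the lowest adjusted p among the 25 genes was 0.222 by edgeR. The median of all 29 was -0.13, against -0.0099 over all genes. Against Sham, the VEGFR3iLECko libraries had 18 complement genes higher and 4 lower, where 19.7% and 15% of all genes were called. This comparison shares the Sham libraries with the first, and it differs in injury, label and Y-linked level at once. Summed Y-linked CPM was 51.1 to 167 in Sham and 0.736 to 1.11 in VEGFR3iLECko libraries, so their parts cannot be told apart.

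The number of DEGs between the injured groups was small over all genes and depended on the fit. With only the 6 injured libraries, 0 of all genes were lower, against 70 with all 9 libraries, and 0 were higher. The 4 complement genes then had log2 fold changes of -0.94 to -0.75 and adjusted p of 0.0943 to 0.107. With the Y-linked level as a covariate 2 of all genes were lower, none of them complement genes, and the 4 had log2 fold changes of -0.72 to -0.58 and adjusted p of 0.146 to 0.250. Leaving out VEGFR3iLECko replicate 1 or 2 left 0 of the 4 as DEGs (6 and 0 of all genes lower), leaving out VEGFR3iLECko replicate 3 or Sham replicate 3 left 1 (17 and 8), and leaving out Sham replicate 1 left 2 (16). The unadjusted p of each of the 4 was at most 0.00232 by edgeR under every alternative. Summed Y-linked CPM was 151 and 136 in injured VEGFR3fl/fl replicates 1 and 2, against 0.736 to 1.11 in the VEGFR3iLECko libraries. In the injured VEGFR3fl/fl group only replicate 3 was as low (0.804 CPM). The Y-linked level thus largely ran together with the label between the injured groups. Its part in these results cannot be told apart from that of the label and was not tested further.

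**Figure D3:**
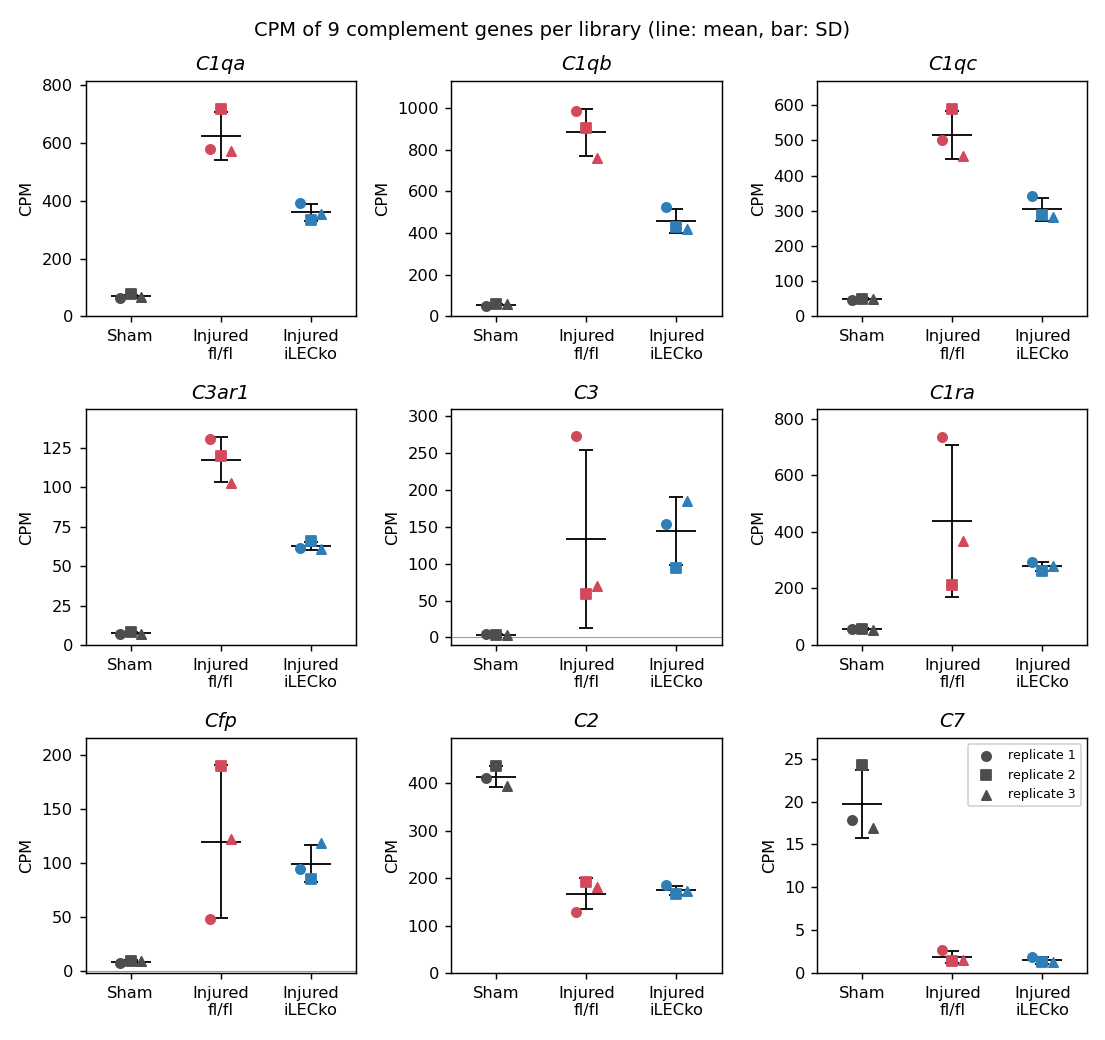
CPM of 9 complement genes in each library (points, shaped by replicate number) with the mean (line) and SD (bar) of the 3 libraries of each group. C1qa, C1qb, C1qc and C3ar1 form 3 separate levels, C3, C1ra and Cfp have 1 or 2 injured VEGFR3fl/fl libraries far from the rest, and C2 and C7 are below Sham at overlapping levels in both injured groups.

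C1q genes are known to be expressed mainly by macrophages, so their level was set beside 15 macrophage markers. The markers summed to 306 to 322 CPM in Sham, 2118 to 2391 in injured VEGFR3fl/fl and 1508 to 1578 in VEGFR3iLECko libraries, where the 3 C1q genes summed to 164 to 186, 1791 to 2211 and 1053 to 1257. Of the 15 markers, 13 rose after injury, beside 22.1% of all genes. In the libraries labelled VEGFR3iLECko, 5 were lower than in injured VEGFR3fl/fl libraries and 1 (Cd14) higher, beside 0.466% and 0.573% of all genes. Cd68, Csf1r and Trem2 had the highest means among the markers, 669, 323 and 298 CPM in injured VEGFR3fl/fl libraries. In VEGFR3iLECko libraries their means were 436, 227 and 136 CPM, and none was a DEG between the injured groups. Itgam, Cd163 and Lyve1 had log2 fold changes above 0 there (0.24, 1.20 and 0.39) and were not DEGs. The summed level of the markers and that of the C1q genes thus moved in the same direction in both comparisons.

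C1q per macrophage marker level was 0.509, 0.609 and 0.563 in Sham, 0.864, 1.04 and 0.844 in injured VEGFR3fl/fl and 0.797, 0.676 and 0.703 in VEGFR3iLECko libraries. Summed over the chains, it was 1.64-fold higher after injury, and the VEGFR3iLECko level was 0.791 of that in injured VEGFR3fl/fl irises, with no overlap in either case. The exact two-sided permutation test gave p = 0.1 for each, the smallest that 3 against 3 libraries allow (adjusted 0.14 and 0.35 over 14 ratios). The single chains differed. C1qb per marker level was without overlap in both comparisons (exact permutation p = 0.1 each). C1qa per marker level was 1.28-fold after injury, and its groups overlapped in both comparisons (exact permutation p = 0.2 each). C1qc per marker level was higher after injury without overlap (exact permutation p = 0.1), but overlapped between the injured groups (exact permutation p = 0.3). For C3ar1 the corresponding folds were 2.21 and 0.764 (exact permutation p = 0.1 each). With Csf1r alone in place of the 15 markers, the folds for C1q were 2.74 and 0.791, the latter with exact permutation p = 0.2. Per Csf1r, C1qb and C3ar1 also overlapped between the injured groups (folds 0.739 and 0.761, exact permutation p = 0.2 each). C5ar1 per marker level was 0.993-fold after injury, with overlapping groups (exact permutation p = 1).

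Other cells of the inflamed iris moved too. Neutrophil markers summed to 4.43 to 5.91 CPM in Sham, 169, 463 and 546 in injured VEGFR3fl/fl and 405, 554 and 1333 in VEGFR3iLECko libraries. Between the injured groups these sums overlapped, and 0 of 7 tested neutrophil markers were DEGs. Fibroblast markers, from cells known to express C1r, C1s, C3, C4 and Serping1, summed to 5318 to 5754, 16953 to 23804 and 17922 to 22650 CPM. Most of that rise came from Col1a1, Col1a2 and Col3a1, with means of 337, 418 and 505 CPM in Sham. In injured VEGFR3fl/fl libraries their means were 5167, 5586 and 5607 CPM. Of the 10 fibroblast markers 7 were DEGs above Sham after injury, Fbln1 was a DEG below it, and Dcn and Pdgfra were not DEGs. Hepatocyte markers, the liver being the main source of plasma complement, summed to 131 to 186 CPM in Sham and 16.1 to 119 in injured VEGFR3fl/fl libraries. Alb had 0 to 185 counts in the 9 libraries, and most of the Sham and injured VEGFR3fl/fl sums came from Ttr, which the eye is also known to make. The part of each cell type in the complement results was not tested.

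**Figure D4:**
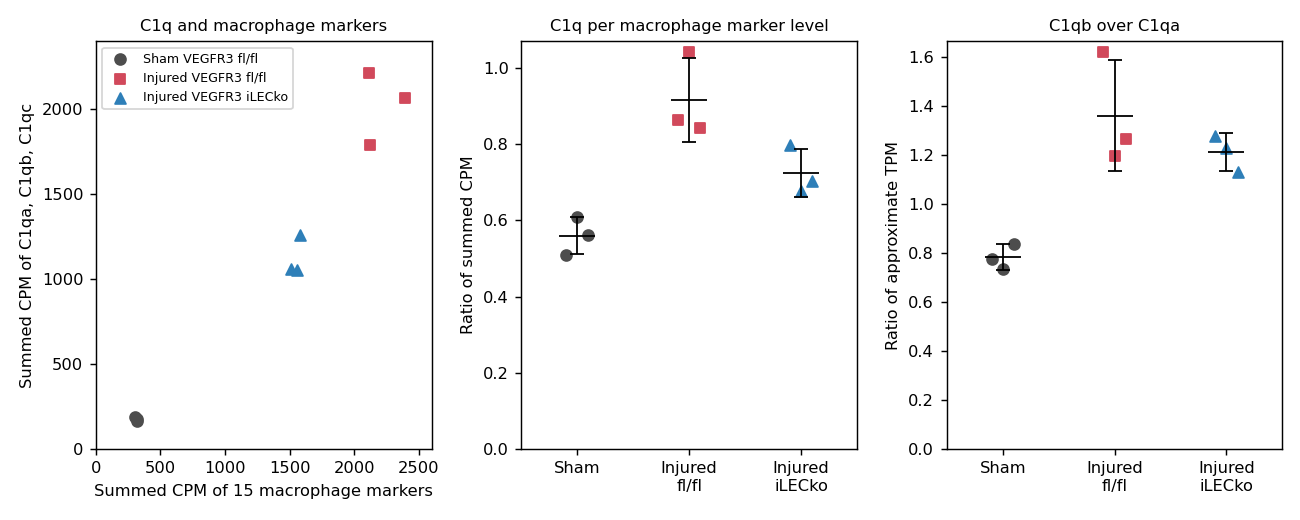
Left, summed CPM of C1qa, C1qb and C1qc against summed CPM of 15 macrophage markers in each library; middle, their ratio per library; right, C1qb over C1qa per transcript length, with means (lines) and SD (bars) of 3 libraries a group. Sham, injured VEGFR3fl/fl and VEGFR3iLECko libraries form separate clusters at left, the ratio is 0.509 to 0.609 in Sham against 0.844 to 1.04 in injured VEGFR3fl/fl irises, and C1qb over C1qa is below 1 in Sham libraries only.

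Injured VEGFR3fl/fl replicate 1 was the highest library of its group for C1ra, C1s1, C3, Cfb, Serping1, Cd55 and Clu, among others, and the lowest for Cfp, C5ar1, Cd93, Vsig4, Masp1 and C2, among others. The spread was largest for C3 (89.95%), C1ra (61.2%), Cfp (58.9%) and Cd55 (58.4%) among genes above 5 CPM, while C1qa, C1qb, C1qc and C3ar1 stayed between 12.03% and 13.3%. That library also had the most corneal and surface epithelium markers (118 against 5.21 and 15.3 CPM), chiefly Aldh3a1 (117 against 1.93 and 10.2 CPM). Of the stromal genes, Dcn (4818 against 1027 and 1899 CPM) and Lum (1929 against 382 and 635 CPM) were highest there. B and plasma cell markers were also highest (38.2 against 7.43 and 4.65 CPM) and neutrophil markers lowest (169 against 463 and 546 CPM). Its hepatocyte sum of 119 CPM was mostly Ttr (114 CPM), and Alb was at 2.49 CPM against 2.81 and 0 in replicates 2 and 3. The part of these cells in its complement levels was not tested. Without it, 17 complement genes rose and 4 fell after injury, with Clu and C8g no longer DEGs and Cd55 added, and the same 4 genes were lower in the VEGFR3iLECko libraries.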

How the data were processed

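The libraries were made from poly(A) RNA with an Illumina TruSeq mRNA kit and sequenced as single reads of 50 bases. The values deposited by the authors are estimated counts per gene, and 9.83% to 10.3% of them per library were not whole. The submitters' processing notes name the mm10 genome, HISAT2 2.0.4, Bowtie2 2.2.5 and DESeq2 1.4.5. The counting program, its annotation and its use of strand are not given in the sources used here. A combined table held the same counts and was not used.

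Counts were rounded and fitted with edgeR 4.0.16 in R 4.3.3 (TMM, filterByExpr, quasi-likelihood test, all 9 libraries in 1 fit with group means and no covariate), and p-values were adjusted by Benjamini-Hochberg over the 15010 genes tested. The scripts were tested on simulated data. Standard errors were taken from the F statistic. Approximate TPM used the longest GENCODE M21 transcript of each gene, found for 96.1% of symbols. Gene positions and promoters are those of RefSeq on GRCm38.p6. Ratios were compared by an exact two-sided permutation test. A count of 3 per library served as the floor for lower bounds. Precision is limited by 3 libraries a group, and reads without molecular identifiers are not independent molecules.

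Samples were grouped by title and treatment as labelled. The members, gene lists, motifs and tests were chosen with earlier results of these data known. All 32 complement genes are named. Of the other complement genes, those that were DEGs in either main comparison are named, at most 10 by mean CPM, plus Flt4, and 1 gene named by this rule is not reported here. C8a, C8b, C9, Cfd, C1rb and C1s2 are named in addition, as genes not tested or as near copies. The alternatives were RLE, library size and upper quartile scaling, no filter or a minimum of 1 CPM, DESeq2 1.42.0, only the libraries compared, a replicate block, a Y-linked covariate, no fold threshold and leaving out each library.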

Additional observations from a re-analysis of the deposited data

How the results depend on the processing

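After injury, 17 to 18 complement genes were higher and 4 to 5 lower in every alternative that kept the 1.5-fold threshold (19 and 5 without it). The number lower in the libraries labelled VEGFR3iLECko than in injured VEGFR3fl/fl irises moved with that over all genes, which was 70 with all libraries. It stayed at 4 under RLE, library size and upper quartile scaling, with no filter, a minimum of 1 CPM or no fold threshold, and by DESeq2, where 41 to 282 of all genes were lower. It fell to 0 with only the 6 libraries compared (0 of all genes) and to 0 with the Y-linked covariate (2 of all genes), with the unadjusted p of the 4 at most 0.00232. Leaving out 1 library gave 0 to 4: 0 when VEGFR3iLECko replicate 1 or 2 was left out (6 and 0 of all genes), 1 when VEGFR3iLECko replicate 3 or Sham replicate 3 was (17 and 8), 2 when Sham replicate 1 was (16), and 4 when Sham replicate 2 or any injured VEGFR3fl/fl replicate was (38 to 149). Over all alternatives the adjusted p ran from 2.89e-08 to 0.250 for C1qa, 2.14e-10 to 0.186 for C1qb, 1.20e-07 to 0.250 for C1qc and 8.69e-12 to 0.146 for C3ar1, and all log2 fold changes stayed below 0. The cause of these losses was not tested.

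Deviations of same-numbered libraries correlated at -0.37 to 0.16, and those of differently numbered libraries at -0.25 to 0.34. With 3 libraries a group, such values cannot settle whether the replicate numbers of the labels pair the libraries. With the replicate number as a block, 1 complement gene (C3ar1) was lower between the injured groups, beside 13 of all genes, with 4 at an unadjusted p under 0.05. Under the block the values of C5ar1 (0.042) and Clu (0.0098) turned positive, and other calls were within the ranges given.

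The median log2 fold change after injury over all tested members was 1.75 with library size only, 2.27 with a minimum of 1 CPM and 1.70 with only the libraries compared, and 1.68 to 2.11 when a library was left out. The terminal median was -1.09 with library size only, -2.16 with a minimum of 1 CPM and -1.08 to -0.77 with a library left out. Library size only gave 0.25 for the regulators and -0.035 for C1rl. With a library left out, the initiators ran from 2.33 to 2.89, C3 and the alternative pathway from 3.31 to 4.10, and Cd55 from -0.82 to 0.017.

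Values near 0 between the injured groups changed sign, and none was a DEG under those settings. With RLE, C1rl was 0.0013 and Clu 0.0028, and DESeq2 gave the same to these digits. With library size only, C1rl was 0.062, C5ar1 0.0021, Cd93 0.016 and Clu 0.071. With only the 6 libraries, C1rl was 0.0087 and Clu 0.0078. With the Y-linked covariate, C2 was -0.051, Cd55 0.13, Cd59a -0.044, Cd46 -0.058 and Clu 0.34. Leaving out 1 library gave log2 fold changes of -0.091 to 0.11 for C1rl, -0.094 to 0.17 for C2, -0.0038 to 0.17 for C4b, -0.33 to 0.042 for Masp1, -0.25 to 1.17 for C3, -0.47 to 0.076 for Cfb, -0.65 to 0.22 for Cfp, -0.084 to 0.76 for C6, -0.54 to 0.022 for C7, -0.30 to 0.078 for C8g, -0.36 to 0.39 for C5ar1, -0.22 to 1.04 for Vsig4, -0.22 to 0.17 for Cd93, -0.39 to 0.58 for Cfi, -0.58 to 0.27 for Cd55, -0.063 to 0.10 for Cd59a and -0.15 to 0.23 for Clu. The same omissions gave medians of -0.30 to 0.076 for C3 and the alternative pathway, -0.24 to 0.073 for the terminal components and -0.16 to 0.22 for the regulators.

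With the median transcript length, approximate TPM in injured VEGFR3fl/fl irises was 2019 for C4b, 656 for Serping1, 624 for C1qa, 838 for C1qb, 498 for C1qc and 221 for C3. C1q per Csf1r, in place of 15 markers, gave a log2 ratio of 1.45 after injury, against 0.71. Genes with few counts, such as Vsig4, C6, Cfi and C4a, have wide errors at this depth, and C8a, C8b, C9, Hc and Masp2 were too low to compare.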
